A study of Mus musculus with 9 samples.

Results

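The genes described here encode 7 subunits of the GABA-A receptor, Gabra2, Gabra3, Gabra4, Gabra5, Gabrb1, Gabrb2 and Gabrd. They were taken by name, by a rule that uses no measured value although earlier results of these data were known, and were found by the Ensembl identifiers that the GENCODE annotation of the mm9 genome pairs with these symbols. They are 7 of 16 GABA-A receptor subunit genes described here and 7 of 15069 genes tested, and all 7 passed the filter on low counts, which kept genes with at least 1 CPM (read counts scaled to a common library size) in at least 1 library. The RNA came from parvalbumin interneurons (PV INs) of hippocampal CA3/CA2 in mice that carried PV-Cre and Rpl22HA, a Cre-dependent allele that puts an HA tag on the ribosomal protein Rpl22. Each library pooled 6 mice, male and female. All mice had received a lentivirus in the dentate gyrus (DG) at an age of 2 months, 2 weeks before the tissue was taken. The virus carried either a non-target shRNA (shNT, 5 libraries) or an shRNA against Ablim3 (shRNA, 4 libraries). The comparison asked how RNA on the ribosomes of PV INs changed when Ablim3, an actin-binding protein of the mossy fibre terminals of DG granule cells, was lowered in the cells that contact them. The tag marks every cell in which PV-Cre has been active, and the pulldown can carry along RNA of other cells.

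GABA-A receptors are chloride channels built from a ring of subunits, most often α and β subunits with either a γ or a δ subunit. The α subunit has much to do with where a receptor sits and how it responds. Receptors with α2 or α3 and a γ subunit are found mainly at synapses, where they carry brief inhibitory currents. Receptors with α4 and δ, and many with α5, lie outside synapses and respond to the low ambient GABA that gives tonic inhibition. β subunits line the GABA binding site in both kinds. In the hippocampus α2 and α5 are best known from pyramidal cells and α4 and δ from DG granule cells, and β1 is also found in glia. PV INs themselves are inhibited by other interneurons and carry tonic currents through receptors with a δ subunit.

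Gene counts per library ran from 18281719 to 34578837. Ablim3 RNA in the pulldown was 16.9 ± 5.16 CPM (SD, n = 5) in shNT and 18.5 ± 3.42 CPM (n = 4) in shRNA libraries (log2 fold change 0.13, SE 0.23, FDR = 0.701), so the mean of the targeted gene, whose shRNA was delivered to DG, was not lower in the RNA from CA3/CA2. PV IN markers were abundant in both groups, with Pvalb at 997 ± 287 and 526 ± 163 CPM. The summed level of the 11 PV IN markers was 4909 to 8079 CPM in shNT and 2934 to 7076 CPM in shRNA libraries. Markers of other cells were present too, among them Slc17a7 of excitatory neurons at 258 ± 83.3 and 433 ± 59.1 CPM and Gfap of astrocytes at 167 ± 56.8 and 423 ± 424 CPM. Libraries shNT 2, shRNA 1 and shRNA 4 had the lowest mean log2 levels of the PV IN markers (-0.46, -0.38 and -1.13 relative to the shNT mean). They also had the largest shares of reads outside exons (18.6%, 19.8% and 27.2%), and the other libraries lay between 9.76% and 12.5%. The sample names fall into a set with shNT 1 to 3 and shRNA 1 to 3 and a set with shNT 4, shNT 5 and shRNA 4. The sources used here do not say whether the sets were batches.

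The 3 genes that differed most between the groups, Gabra2, Gabra5 and Gabrb1, are shown by the 250 bases before their transcription start, next to those of Gabra4, whose level did not separate the groups and which lies between Gabra2 and Gabrb1 on chromosome 5. The sequences are from RefSeq (GRCm38.p6), run 5′ to 3′ on the strand of the gene, and were placed in mm9 by an exact match. Capitals mark a GC box, the letters GGGCGG on either strand, and nothing else.
Gabra2, chr5:71487089-71487338, minus strand: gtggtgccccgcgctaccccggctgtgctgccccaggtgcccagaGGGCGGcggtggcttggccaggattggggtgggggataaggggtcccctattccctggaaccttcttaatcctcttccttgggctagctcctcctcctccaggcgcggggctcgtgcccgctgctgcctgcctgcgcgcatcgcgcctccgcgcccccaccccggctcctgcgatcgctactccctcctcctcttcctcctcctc
Gabra5, chr7:64765430-64765679, minus strand: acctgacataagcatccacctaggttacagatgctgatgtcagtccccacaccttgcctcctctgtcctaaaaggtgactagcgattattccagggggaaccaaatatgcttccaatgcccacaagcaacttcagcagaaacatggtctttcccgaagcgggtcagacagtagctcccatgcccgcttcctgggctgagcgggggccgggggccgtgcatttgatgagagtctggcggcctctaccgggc
Gabrb1, chr5:72090921-72091170, plus strand: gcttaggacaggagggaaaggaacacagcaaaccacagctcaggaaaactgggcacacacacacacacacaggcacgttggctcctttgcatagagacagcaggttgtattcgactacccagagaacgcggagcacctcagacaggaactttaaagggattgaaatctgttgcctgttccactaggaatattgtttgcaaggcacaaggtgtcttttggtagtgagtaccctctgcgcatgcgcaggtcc
Gabra4, chr5:72049548-72049797, minus strand: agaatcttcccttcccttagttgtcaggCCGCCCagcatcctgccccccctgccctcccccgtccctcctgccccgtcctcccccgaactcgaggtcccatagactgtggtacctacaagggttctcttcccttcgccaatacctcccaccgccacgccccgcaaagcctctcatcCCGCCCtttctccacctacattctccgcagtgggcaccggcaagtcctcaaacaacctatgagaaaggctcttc

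The promoter of Gabra2 held 1 GC box and that of Gabra4 held 2, whereas those of Gabra5 and Gabrb1 held 0. GC boxes were found in 32.7% of the 32851 promoters of the same length in the table. Both strands were also searched for a CRE (TGACGTCA, in 1.55% of promoters), an EGR motif (GCGNGGGCG, in 4.70%, whose last letters can overlap a GC box) and a TATA box (TATAAA, in 12.4%), and none of these was in the 4 sequences. CG dinucleotides numbered 18 in Gabra2, 12 in Gabra4, 9 in Gabra5 and 6 in Gabrb1, against a median of 6 over all promoters. The RefSeq start of Gabra5 lies 50 bases upstream of the start in the mm9 annotation. RefSeq gives Gabrb1 another start 387 bases inside Gabra4 on the opposite strand, and the sequence printed is that of the start shared with the mm9 annotation. The sequence before the start inside Gabra4 held 18 CG dinucleotides. The table held 10 starts of 6 of the 7 genes, without Gabrd. Among the others, the TATA box was found before Gabra3 and before the first start of Gabrb2, which also held an EGR motif overlapping a GC box.

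Of the synaptic α subunits, Gabra2 rose and Gabra3 did not pass the test. Gabra2 was at 26.4, 29.4, 28.0, 23.9 and 21.8 CPM in shNT 1 to 5 and at 42.8, 38.3, 43.0 and 49.7 CPM in shRNA 1 to 4. Every shRNA library was above every shNT library. The means were 25.9 ± 3.08 and 43.4 ± 4.68 CPM, a 1.68-fold difference (95% confidence interval 1.37 to 2.06, log2 fold change 0.75, SE 0.14, FDR = 0.0403 by the quasi-likelihood test of edgeR, adjusted over all genes tested after Benjamini and Hochberg). Gabra3, which encodes the other synaptic α subunit of the list, was at 47.8, 24.9, 52.4, 44.8 and 42.8 CPM in shNT and at 32.9, 53.9, 47.6 and 30.8 CPM in shRNA libraries. The groups overlapped over nearly their whole range, and its low values were those of shNT 2, shRNA 1 and shRNA 4, the 3 libraries with the most reads outside exons. The interval of the Gabra3 fold change, 0.681 to 1.38, left room for a change of either sign (log2 fold change -0.04, SE 0.23, FDR = 0.909).

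Of the extrasynaptic subunits, Gabra5 had the larger difference without passing the threshold, and Gabra4 and Gabrd differed by less than the spread between libraries. Gabra5, whose subunit carries tonic current in pyramidal cells, was at 56.6, 42.6, 59.3, 29.2 and 32.03 CPM in shNT and at 67.6, 76.3, 89.6 and 89.7 CPM in shRNA libraries. The groups did not overlap. Within shNT the libraries of the smaller set of names, shNT 4 and 5, were the lowest, as for Gabra2 and Gabrb1. The means were 44.0 ± 13.7 and 80.8 ± 10.8 CPM, a 1.84-fold difference (95% confidence interval 1.32 to 2.56, log2 fold change 0.88, SE 0.22, FDR = 0.0570). Gabra5 passed the threshold with the likelihood ratio test of edgeR (FDR = 0.00576), with DESeq2 (FDR = 0.00810) and with limma voom (FDR = 0.00143).

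Gabra4, the usual α partner of δ in forebrain, was at 151, 102, 156, 153 and 149 CPM in shNT and at 106, 150.3, 143 and 118 CPM in shRNA libraries. Besides shNT 2, which was far below the rest of its group, the shNT libraries lay within a narrow band that 1 of the 4 shRNA libraries reached. The log2 fold change was -0.14 (SE 0.17, FDR = 0.574), and the interval of the fold change was 0.703 to 1.18. Gabrd, which encodes δ itself, was at 86.6, 57.5, 96.9, 82.4 and 101 CPM in shNT and at 74.6, 90.3, 79.2 and 41.7 CPM in shRNA libraries. Its lowest value in each group was again that of shNT 2 and shRNA 4. The log2 fold change of Gabrd was -0.25 (SE 0.23, FDR = 0.446), with an interval of 0.595 to 1.19 for the fold change.

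The β subunits, which take part in both kinds of receptor, differed from each other. Gabrb1 rose, from 40.4, 38.0, 34.6, 29.3 and 31.1 CPM in shNT to 54.2, 55.3, 63.6 and 92.9 CPM in shRNA libraries. The groups did not overlap, and shRNA 4 stood well above the other shRNA libraries. The means were 34.7 ± 4.63 and 66.5 ± 18.1 CPM, a 1.92-fold difference (95% confidence interval 1.46 to 2.52, log2 fold change 0.94, SE 0.18, FDR = 0.0403). Gabrb2, which encodes a β subunit abundant in interneurons, was at 635, 413, 731, 618 and 616 CPM in shNT and at 456, 663, 601 and 302 CPM in shRNA libraries. The groups overlapped, with the lowest value of each again in shNT 2 and shRNA 4 (log2 fold change -0.25, SE 0.25, FDR = 0.471, interval of the fold change 0.578 to 1.22).

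**Figure D1:**
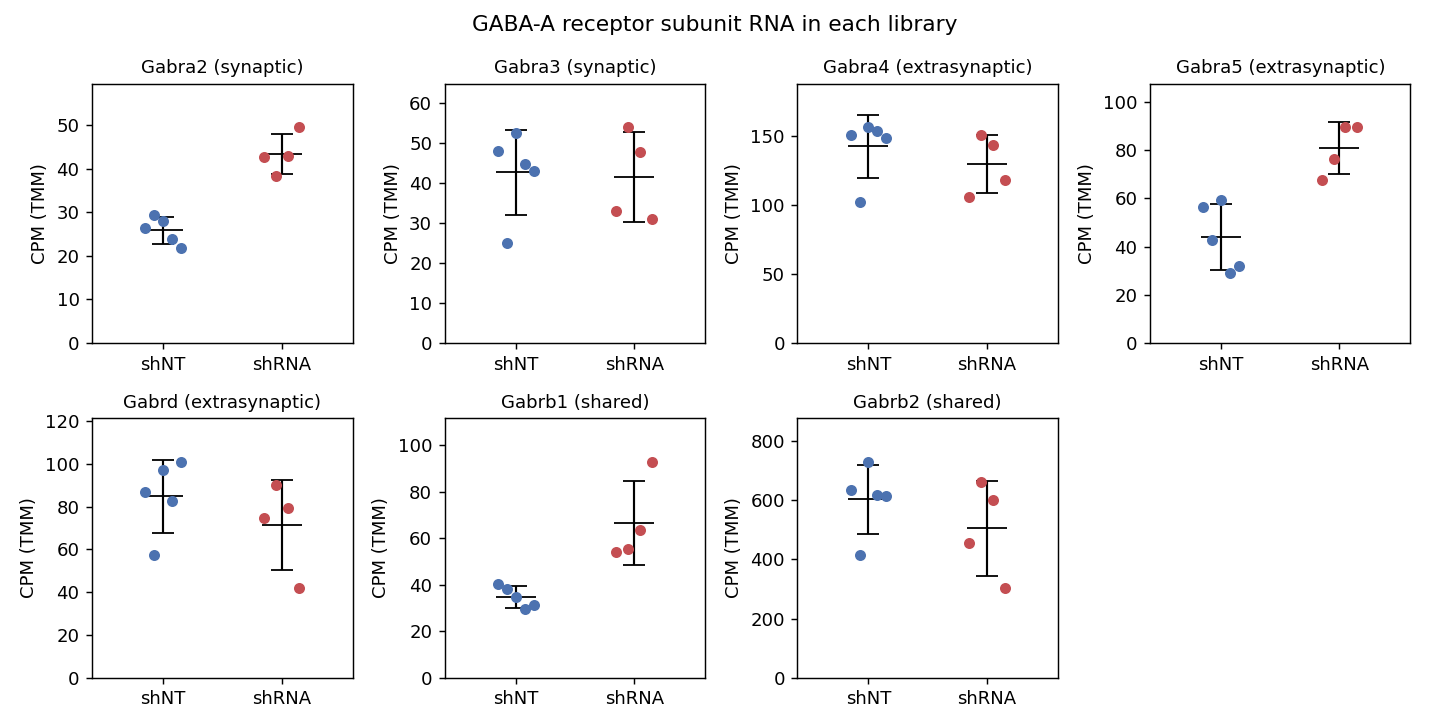
Level of each of the 7 subunit genes in CPM after TMM normalization, with 1 point per library for shNT (n = 5) and shRNA (n = 4) and the mean ± SD in black, each axis starting at 0. The shRNA points of Gabra2, Gabra5 and Gabrb1 lie above every shNT point, and those of Gabra3, Gabra4, Gabrd and Gabrb2 overlap the shNT points.

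Thus 2 of the 7 genes passed both the FDR threshold of 0.05 and the fold threshold of 1.5 in the upward direction, against 1.74% of all genes tested, and 0 were called lower, against 0.0133% of all genes. At an unadjusted p under 0.05 there were 3, Gabra2, Gabra5 and Gabrb1, all higher in shRNA libraries, against 34.1% of all genes tested in either direction. The likelihood ratio and exact tests of edgeR, DESeq2 and limma voom each called these 3 higher and 0 of the 7 lower. These other tests called 11.2%, 11%, 10.2% and 15.3% of all genes higher and 3.6%, 3.54%, 5.57% and 4.1% lower. Groups did not overlap for the same 3 genes, all with the shRNA libraries above, a pattern found in 8.97% of all genes tested (6.68% had every shRNA library below). The median log2 fold change was -0.04 over the 7 genes and 0.11 over all genes tested.

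By p, Gabra2 ranked 51 and Gabrb1 94 among all genes tested, their FDR of 0.0403 was a value shared by 106 genes, and the calls depended on single libraries. Without shNT 3, shNT 4, shNT 5, shRNA 1 or shRNA 3 neither gene was called, nor was any other gene. Without shRNA 4 Gabrb1 was still called and Gabra2 was not (FDR = 0.0555). Without both shNT 2 and shRNA 4, an alternative chosen after the data were seen, both were called (log2 fold changes 0.74 and 0.78, FDR = 0.0236 for each), and Gabra5 had a log2 fold change of 0.83 (FDR = 0.0815). Library shRNA 1, which also had many reads outside exons, was kept in that fit. Within the larger set of names alone, the log2 fold changes of Gabra2, Gabrb1 and Gabra5 were 0.53, 0.58 and 0.53 (FDR = 0.257, 0.255 and 0.416), and with the set as a block they were 0.74, 0.94 and 0.88 (FDR = 0.0313, 0.0337 and 0.0512). The smaller set has 1 shRNA library and gave no test of its own.

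The gene length correction made the differences of Gabra2, Gabrb1 and Gabra5 smaller, and the exon length correction left them nearly the same size. The median length of the genes tested was 22.8 kb. Gabra2 spans 135 kb, Gabra5 102 kb and Gabrb1 438 kb, and of the genes that were not called Gabra3 spans 224 kb, Gabrb2 213 kb, Gabra4 88.6 kb and Gabrd 13.1 kb. With a correction for the trend of counts with gene length in each library, the log2 fold changes of Gabra2, Gabrb1 and Gabra5 were 0.39, 0.51 and 0.57 (FDR = 0.0881, 0.0844 and 0.0844), and with a correction for exon length they were 0.80, 0.89 and 0.89 (FDR = 0.0851, 0.0851 and 0.0952). With each library's percentage of reads outside exons in the fit as a covariate they were 0.63, 0.71 and 0.88 (FDR = 0.0785, 0.0831 and 0.0977). Under the gene length correction Gabra3, Gabra4, Gabrb2 and Gabrd had log2 fold changes of -0.42, -0.45, -0.62 and -0.23, and with the covariate all 4 turned positive (Gabra3 0.35, Gabra4 0.08, Gabrd 0.13 and Gabrb2 0.14).

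**Figure D2:**
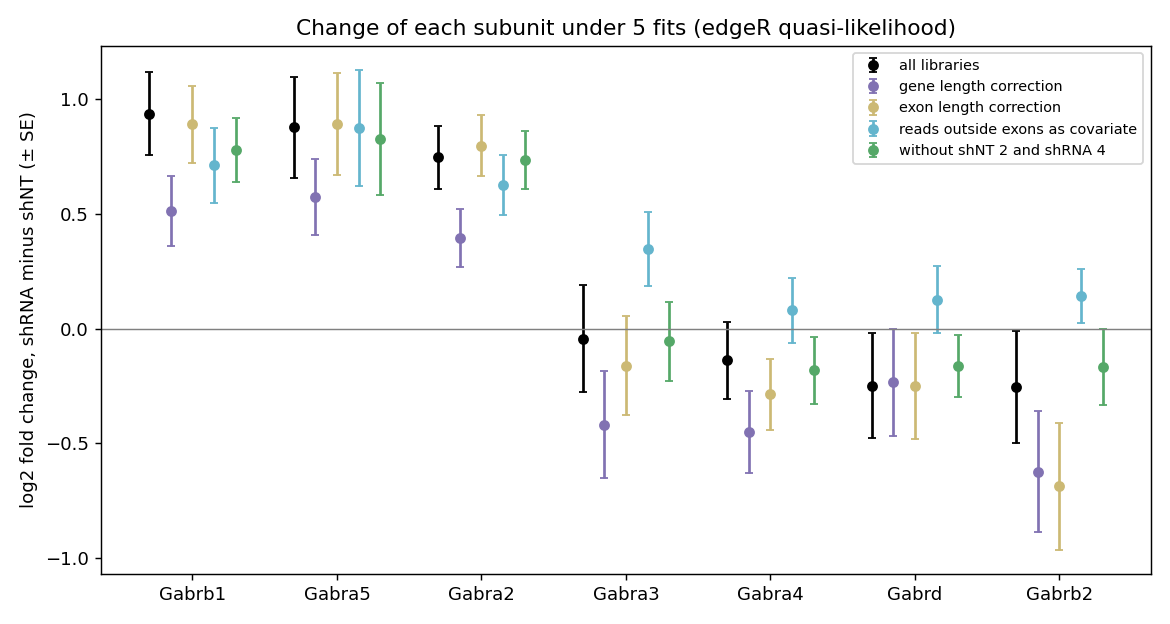
Log2 fold change of each subunit gene, shRNA minus shNT, ± SE, in 5 fits of the quasi-likelihood test, with a line at 0. Gabra2, Gabra5 and Gabrb1 are above 0 in every fit drawn, from 0.39 for Gabra2 with the gene length correction to 0.94 for Gabrb1, and the other 4 genes lie between -0.69 and 0.35.

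Neither the synaptic nor the extrasynaptic subunits moved together as a class. The mean log2 level of Gabra4, Gabra5 and Gabrd minus that of Gabra2 and Gabra3 was 1.343, 1.216, 1.331, 1.132 and 1.358 in shNT and 1.110, 1.153, 1.151 and 0.958 in shRNA libraries. The means were 1.28 ± 0.098 and 1.09 ± 0.092, and the groups overlapped only through shNT 4. The difference of -0.18, which was not tested, became -0.026 with the gene length correction. Each class held 1 gene with the higher level in all shRNA libraries, Gabra2 among the 2 synaptic and Gabra5 among the 3 extrasynaptic subunits. With fewer genes in its class, Gabra2 weighs more in the class mean than Gabra5 does.

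Pairs that set Gabra2, Gabra5 or Gabrb1, already seen to be higher, against Gabra3, Gabra4, Gabrd or Gabrb2 showed larger shifts. Gabra5 minus Gabra4 was -1.73 ± 0.53 on the log2 scale in shNT and -0.67 ± 0.24 in shRNA libraries, without overlap. Gabra5 minus Gabrd went from -0.98 ± 0.55 to 0.22 ± 0.61, again without overlap, with shRNA 4 highest at 1.10 and Gabra5 above Gabrd in 2 of the 4 shRNA libraries. Gabrd minus Gabra4, the pair that forms one receptor in granule cells, was -0.75 ± 0.13 and -0.90 ± 0.42, with overlapping groups. Gabra2 minus Gabra3 was -0.68 ± 0.52 and 0.11 ± 0.53, where shNT 2 at 0.24 lay among the shRNA libraries. Gabrb1 minus Gabrb2 was -4.10 ± 0.41 and -2.90 ± 0.83, also overlapping, with shRNA 4 highest at -1.70. These differences were not tested.

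Levels were compared between genes as CPM per kb of exon. In shNT libraries the order was Gabrb2 (60.7 ± 11.7), Gabra4 (34.4 ± 5.48), Gabrd (29.5 ± 5.93), Gabra5 (16.6 ± 5.18), Gabrb1 (11.2 ± 1.497), Gabra3 (10.8 ± 2.68) and Gabra2 (10.8 ± 1.29). From Gabrb2 to Gabrb1 each step held in 5 of 5 shNT libraries, although the ranges of neighbours overlapped for all but Gabrb2 and Gabra4. Gabrb1, Gabra3 and Gabra2 could not be ordered, since Gabrb1 was above Gabra3 in 2 of 5 libraries and their means differed by less than either SD. In shRNA libraries Gabrb2 was at 50.9 ± 16.2, Gabra4 at 31.3 ± 5.09, Gabra5 at 30.5 ± 4.08, Gabrd at 24.8 ± 7.26, Gabrb1 at 21.5 ± 5.86, Gabra2 at 18.2 ± 1.96 and Gabra3 at 10.5 ± 2.86. There Gabrd was above Gabra5 in 2 of 4 libraries, Gabrb1 was above Gabra3 in 4 of 4 with no overlap of their ranges, and Gabra3 was above Gabra2 in 0 of 4.

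Shares of the summed levels per kb moved in the same way. Of the 4 α genes Gabra2 to Gabra5, Gabra4 made up 47.5% ± 5.35 in shNT and 34.5% ± 3.01 in shRNA libraries, and Gabra5 22.6% ± 5.38 and 33.7% ± 2.86. Gabra2 took 15.1% ± 3.12 and 20.3% ± 3.18 of that sum and Gabra3 14.8% ± 2.33 and 11.6% ± 2.46. The largest share was thus that of Gabra4 in shNT libraries, whereas in shRNA libraries Gabra4 and Gabra5 differed by less than either SD. Of the sum of Gabrb1 and Gabrb2, Gabrb1 made up 16.0% ± 4.10 in shNT and 30.95% ± 12.8 in shRNA libraries, with 49.7% in shRNA 4. Shares of a sum move together, so a share can fall because another gene rose.

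**Figure D3:**
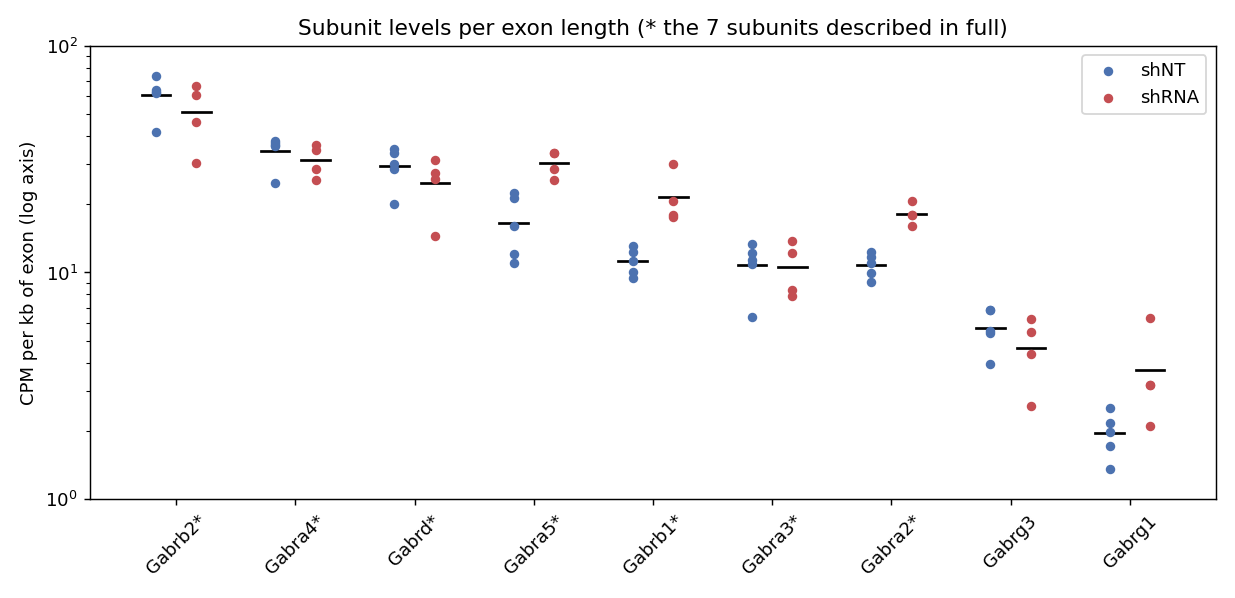
Level of each GABA-A receptor subunit gene described here with a mean above 1 in shNT as CPM per kb of exon on a log axis, with 1 point per library for shNT (n = 5) and shRNA (n = 4) and a bar at each group's mean; an asterisk marks the 7 genes described in full. Gabrb2 is highest at 60.7 in shNT, and the points of Gabra5, Gabrb1 and Gabra2 are higher in shRNA than in shNT libraries.

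Of 9 other GABA-A receptor subunit genes, 4 passed the filter and 0 were called by the quasi-likelihood test, while 2 had an unadjusted p under 0.05 (34.1% of all genes tested did). Gabrg3 was at 68.1 ± 14.3 CPM in shNT and 55.5 ± 18.9 CPM in shRNA libraries (log2 fold change -0.29, SE 0.25, FDR = 0.403). Gabrg1, a γ subunit that is also found in glia, was at 9.29 ± 2.11 and 17.6 ± 8.62 CPM (0.92, SE 0.29, FDR = 0.0723). Gabra6, the α subunit of cerebellar granule cells, reached 79 reads in 1 shRNA library and had few or none in the rest. Gabrr2 passed the filter with at most 32 reads in a library. Gabre, Gabrp, Gabrq, Gabrr1 and Gabrr3 had at most 18 reads in any library and were not tested.

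Several of these genes lie together in the genome. On chromosome 5 (mm9) Gabrg1 (71142286 to 71233856, minus strand), Gabra2 (71352296 to 71487088, minus), Gabra4 (71960973 to 72049547, minus) and Gabrb1 (72091171 to 72529628, plus) follow each other, with 118 kb, 474 kb and 41.6 kb between them. Gabra2 and Gabrb1 rose, and Gabra4 between them was not called. On chromosome 7 Gabra5 (64663060 to 64765379, minus) lies 20.5 kb from Gabrg3. Their log2 fold changes were 0.88 and -0.29. Gabrb2 is on chromosome 11 (42233259 to 42446092, plus), Gabra3 on chromosome X (69678020 to 69902187, minus) and Gabrd on chromosome 4 (154759089 to 154772221, minus). Both groups of neighbours thus held log2 fold changes of either sign. Reads were counted over exons without regard to strand, and of the exons of Gabra5 4.45% overlap those of another annotated gene, Gm9962.

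**Figure D4:**
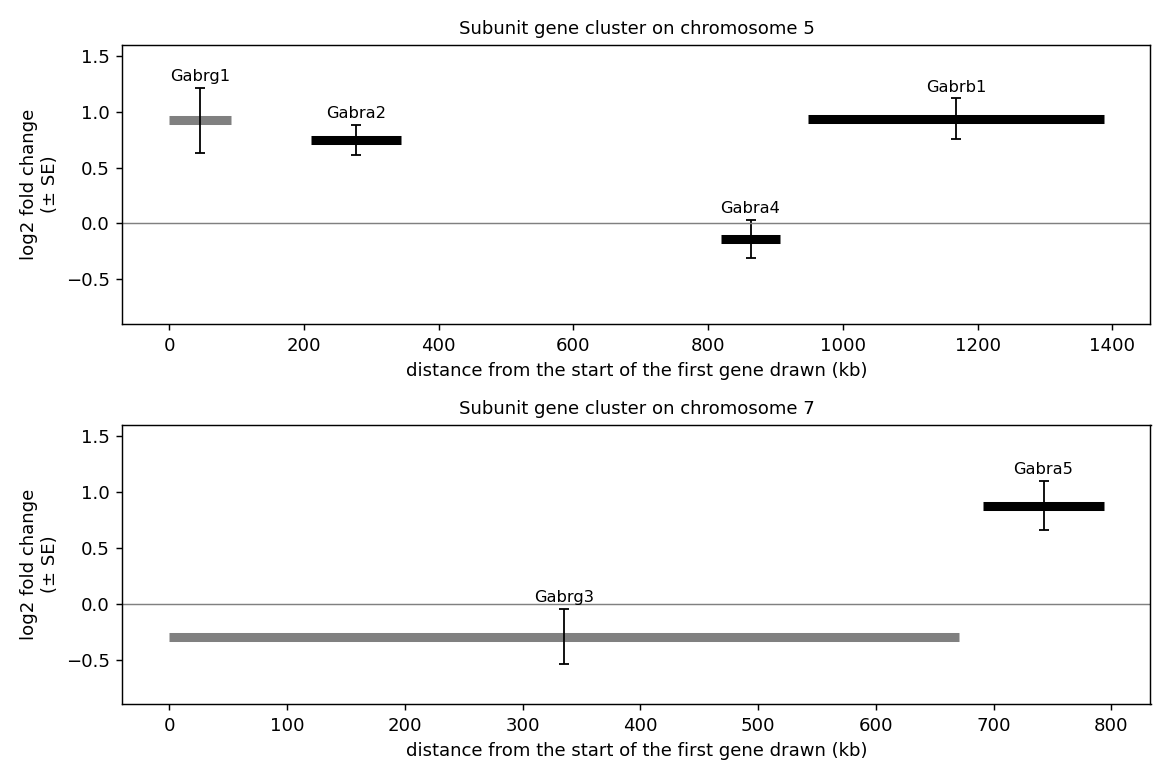
Log2 fold change, shRNA minus shNT, ± SE, of neighbouring subunit genes on chromosomes 5 and 7, each drawn as a bar as long as the gene against the distance in kb from the start of the first gene drawn, with the 7 genes described in full in black. On chromosome 5 Gabra4 at -0.14 lies between Gabra2 at 0.75 and Gabrb1 at 0.94, and on chromosome 7 Gabra5 at 0.88 lies next to Gabrg3 at -0.29.

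Genes whose products hold, traffic or modify GABA-A receptors were taken as a list of 23. All 23 were tested and 0 were called by the quasi-likelihood test, while 11 had an unadjusted p under 0.05 (against 34.1% of all genes) and 18 had a positive log2 fold change (57.9% of all genes did), with a median of 0.06 beside 0.11 over all genes. Gephyrin (Gphn), the scaffold of inhibitory synapses, was at 60.9 ± 6.95 and 62.1 ± 7.76 CPM, a log2 fold change of 0.03 (SE 0.14). The inhibitory synapse adhesion protein Nlgn2 had a log2 fold change of -0.43 (SE 0.18, FDR = 0.128), and Lhfpl4, which holds receptors with a γ subunit at synapses, of 0.03 (SE 0.18). Shisa7, an auxiliary subunit, had a log2 fold change of 0.20 (SE 0.14), and radixin (Rdx), the anchor of receptors with α5, of 0.04 (SE 0.12, FDR = 0.805). Of these 5, Nlgn2 had an unadjusted p under 0.05, with the lower level in shRNA libraries. Groups did not overlap for 5 of the 23, named here after their values were seen, with Plcl1, Hap1 and Magi2 higher and Gabarapl1 and Gabarapl2 lower in all shRNA libraries, against 8.97% and 6.68% of all genes. Of 5 genes of the metabotropic GABA-B receptor, 4 were tested and 0 called, while 2 had an unadjusted p under 0.05 (against 34.1% of all genes), with log2 fold changes of -0.28 for Gabbr1, 0.22 for Gabbr2, -0.51 for Kctd8 and 1.28 for Kctd16.

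Marker lists of several other cell types were higher in shRNA libraries, as were Gabra2, Gabra5 and Gabrb1. The values that follow are the mean log2 level of a marker list minus its mean in shNT. PV IN markers ranged from -0.46 to 0.16 in shNT and from -1.13 to -0.02 in shRNA libraries, with 11 of 11 log2 fold changes negative and 0 called. DG granule cell markers ranged from -0.74 to 0.55 and from 0.77 to 1.34, with 7 of 7 positive and 1 called (Dock10), and their summed level was 73.9 to 141 and 176 to 228 CPM. CA3/CA2 pyramidal neuron markers ranged from -0.58 to 0.34 and from 0.49 to 0.83, with 7 of 8 positive and 1 called (Grik4), and a summed level of 574 to 1428 and 1489 to 1871 CPM. Markers of other interneurons ranged from -0.56 to 0.33 and from 0.12 to 0.40, with 4 of 7 positive and 2 called (Cnr1 and Reln). Sst, Npy and Cck had negative log2 fold changes, and the summed level of this list was 533 to 908 and 362 to 718 CPM. Nuclear-retained RNAs ranged from -0.81 to 1.66 and from 0.18 to 2.25, with 5 of 5 positive and 0 called. By the quasi-likelihood test, the unadjusted p was under 0.05 for 4 of 7 DG granule cell and 6 of 8 CA3/CA2 pyramidal markers. It was so for 2 of 11 PV IN markers, 3 of 7 markers of other interneurons and 2 of 5 nuclear-retained RNAs. Of all genes tested, 34.1% had such a p, 1.74% were called higher and 57.9% had a positive log2 fold change. Both excitatory lists, like Gabra2, Gabra5 and Gabrb1, were thus higher in every shRNA library, and the part of such cells in the differences was not tested. In such bulk RNA, fewer cells of a type and less RNA per cell cannot be told apart.

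Glial markers had positive differences as well. Astrocyte markers ranged from -0.27 to 0.53 in shNT and were at 0.43, 0.45, 0.81 and 2.77 in shRNA 1 to 4, with 8 of 8 log2 fold changes positive and 0 called, and a summed level of 527 to 1001 and 888 to 4628 CPM. Markers of oligodendrocyte precursors ranged from -0.49 to 0.32 and from 0.78 to 1.47, with 3 of 3 positive and 2 called. Oligodendrocyte markers were positive in 6 of 6, microglia markers in 4 of 5 and endothelial markers in 5 of 5, each with 0 called. By the quasi-likelihood test, the unadjusted p was under 0.05 for 8 of 8 astrocyte, 3 of 3 precursor and 5 of 6 oligodendrocyte markers. It was so for 3 of 5 microglia and 0 of 5 endothelial markers, against 34.1% of all genes tested. Of all genes, 1.74% were called higher and 57.9% had a positive log2 fold change. The endothelial list was above the shNT mean in shRNA 4 alone (2.40), and at -0.50, -1.49 and -0.52 in shRNA 1 to 3. Library shRNA 4 had the highest level of the astrocyte, endothelial, oligodendrocyte, oligodendrocyte precursor, DG granule cell and nuclear-retained RNA lists. It also had the most reads outside exons (27.2%) and the highest Gabrb1, Gabra2 and Gabrg1. Gabra5 was about equally high in shRNA 3 and shRNA 4 (89.6 and 89.7 CPM). The part of these cells in the levels of Gabrb1, Gabra2, Gabra5 and Gabrg1 was not tested.

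Levels were also expressed relative to the PV IN markers, as the log2 level of a subunit gene minus the mean log2 level of the 11 markers in the same library. Gabrb2 was at 0.79 ± 0.10 in shNT and 0.93 ± 0.09 in shRNA libraries, and Gabrd at -2.04 ± 0.09 and -1.89 ± 0.05. For these genes the SD between libraries was small, so that the low CPM of Gabrd and Gabrb2 in shNT 2 and shRNA 4 went with a low level of the PV IN markers. Gabra4 was at -1.29 ± 0.05 and -0.99 ± 0.40 and Gabra3 at -3.05 ± 0.19 and -2.66 ± 0.27, with overlapping groups. Gabra2 was at -3.73 ± 0.39 and -2.55 ± 0.64, Gabra5 at -3.02 ± 0.54 and -1.66 ± 0.60, and Gabrb1 at -3.31 ± 0.39 and -1.97 ± 0.83. The marker mean itself was lower by 0.43 in shRNA libraries, so all 7 differences are shifted upward on this scale, and that of Gabrd is positive (0.15) where its log2 fold change in CPM was -0.25. On this scale the groups of Gabra5 and Gabrb1 still did not overlap, those of Gabra2 did through shNT 2, and those of Gabrd, which overlapped in CPM, did not. The share of all genes whose groups do not overlap on this scale was not determined, and 8.97% and 6.68% hold for CPM only.

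**Figure D5:**
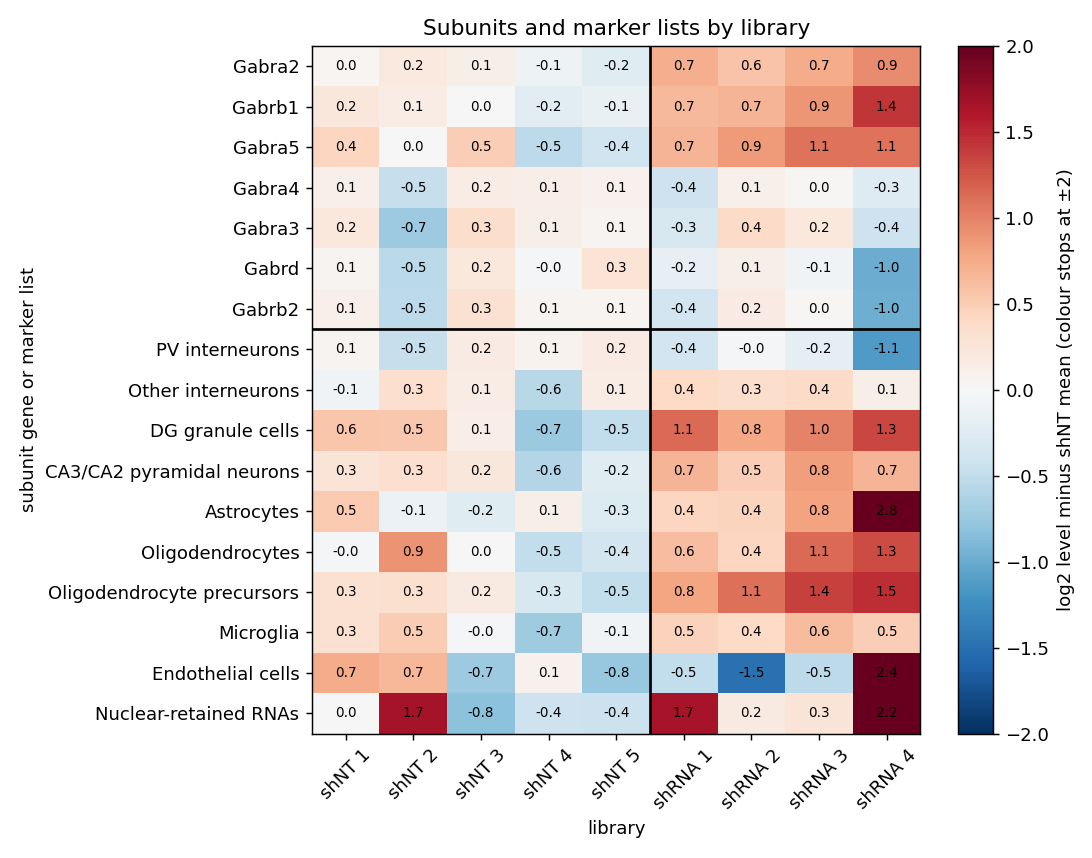
Log2 level minus the shNT mean of each of the 7 subunit genes (above the line) and the mean of each marker list (below it) in the 9 libraries, shNT to the left of the vertical line and shRNA to the right, with colours that stop at ±2. Gabra2, Gabrb1 and Gabra5 and the lists for DG granule cells, CA3/CA2 pyramidal neurons and oligodendrocyte precursors are higher in every shRNA library, whereas Gabrb2, Gabrd and the PV IN markers are lowest in shRNA 4.

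Over the 9 libraries the genes fell into 2 sets by pattern, given here as Pearson's r of log2 levels across libraries that share their cell composition, depth and group difference. Gabra2 and Gabrb1 had r = 0.95, Gabra2 and Gabra5 0.89, and Gabra5 and Gabrb1 0.89. Gabrd and Gabrb2 had r = 0.95, Gabra3 and Gabra4 0.94, and Gabra3 and Gabrb2 0.87. Among 9492 genes with a mean of at least 10 CPM, the 2 most like each gene were Arhgef10 (0.99) and Suv420h1 (0.98) for Gabra2, Mast3 (0.99) and Cabin1 (0.99) for Gabra5, and Arhgef26 (0.99) and Il33 (0.99) for Gabrb1. They were Mef2c (0.998) and Mtap4 (0.997) for Gabrb2, Psap and Wdr41 (both 0.99) for Gabrd, Dnm1l and Rps6ka5 (both 0.99) for Gabra3, and Tgoln1 and Zfp703 (both 0.98) for Gabra4.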

How the data were processed

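Ribosome-associated RNA, immunoprecipitated by the HA tag from CA3/CA2 PV INs, was sequenced in 5 shNT and 4 shRNA libraries. The authors aligned 50-base reads to mm9 with STAR, assigned uniquely mapped reads to genes with HTSeq (0.6.0), ignoring strand, and deposited the counts for each library without normalization. Their annotation is not given in the sources used here, and GENCODE annotation of the same build named 37205 of 37620 identifiers. For symbols with several identifiers, the one with the most counts was used.

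R 4.3.3 was used, with the packages edgeR (4.0.16), limma (3.58.1) and DESeq2 (1.42.0). A gene was kept if 1 library or more reached 1 CPM (15069 kept, 22551 removed). Counts were normalized with TMM and fitted by the quasi-likelihood method of edgeR, with no term but condition, since the authors name edgeR but not the test. A call needed an FDR (Benjamini-Hochberg) below 0.05 together with a 1.5-fold difference or more. Confidence intervals (95%) use the standard error and degrees of freedom of that fit. CPM are after TMM and log2 levels have a prior count of 2. The methods were tested on simulated data. Libraries are separate pools of mice, and with 5 against 4 the spread between them, not the depth of at least 18281719 counts, limits precision.

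The members and lists were chosen with earlier results of these data known. By rule, all 7 members were named with every library's value, with the other subunit genes, 5 of the receptor partners and any partner called, the GABA-B list and the 2 most alike genes for each member. Some genes of these lists are not reported here. Alternatives were other tests (edgeR's likelihood ratio and exact tests, DESeq2, limma voom), normalizations, filters, length corrections, blocks, a covariate, the larger set of names alone and each library left out. Alternatives chosen after seeing the data were the likelihood ratio test with a length correction, and leaving out shNT 2 and shRNA 4 together. The study's other experiments were not analysed here.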

Additional observations from a re-analysis of the deposited data

Results flagged for a closer look

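In 1 case a library lay far from the rest of its group by Dixon's criterion. Gabra4 was at 102 CPM in shNT 2, against 149 to 156 CPM in the other 4 shNT libraries. Over 20 groups of values examined, chance alone gives about 1 such case. Relative to the PV IN markers of the same library, Gabra4 in shNT 2 was at -1.29 on the log2 scale, and the mean of its group was -1.29.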

How the results depend on the processing

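The number of the 7 genes called higher was 2, and 0 were called lower under every alternative run. It was 0 with library size only, with the upper quartile, with the larger set of names alone, with either length correction, with reads outside exons as a covariate and with the likelihood ratio test and gene length correction together, and all of these but the last called 0 of all genes tested. With each library left out it ranged from 0 to 3. The likelihood ratio and exact tests, DESeq2, voom and no filter on low counts gave 3.

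Same-numbered libraries had correlations of -0.27, -0.64, 0.49 and -0.18, and only number 3 correlated best with its own number. Both shRNA 1 and shRNA 4 correlated best with shNT 2, the shNT library with the most reads outside exons. Such correlations can also reflect library quality, so they do not decide whether the numbers pair the libraries. With the replicate block (8 libraries) 0 of the 7 genes were called, with log2 fold changes of 0.60, 0.78 and 0.74 for Gabra2, Gabrb1 and Gabra5 and FDR of 0.383, 0.350 and 0.383.

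With each library left out, log2 fold changes were 0.60 to 0.80 for Gabra2, 0.71 to 1.02 for Gabrb1 and 0.69 to 0.98 for Gabra5, with an FDR up to 0.169 for each. Gabra3 changed sign with voom (0.088), the larger set of names alone (0.078), the covariate (0.35) and without shNT 1, shRNA 1 or shRNA 4, in a range from -0.20 to 0.070 over all libraries left out. Gabra4, Gabrd and Gabrb2 did so with the covariate (0.080, 0.13 and 0.14). The extrasynaptic minus synaptic difference went from -0.18 to -0.026 with the gene length correction. Gabrb2 was at 78.6 CPM per kb with its longest transcript in place of 60.7 with all exons. Library size only moved the median log2 fold change of all genes from 0.11 to 0.17.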
